A study of Mus musculus with 10 samples.

Results

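The collagen genes are the 44 genes whose symbol is Col, a type number, the letter a and a chain number, out of 24391 gene names measured by RNA-seq in mouse hippocampus. All 44 had a count in at least 1 mouse, 41 had enough counts to be tested, and against Sham and Naive mice pooled 8 were higher after subarachnoid hemorrhage while 0 were lower, beside 3.13% and 1.54% of all genes tested. Against Sham mice alone 2 of the 41 were called, beside 0.72% of all genes, a count that ran from 0 to 7 with each mouse left out and was 7 by DESeq2. The 4 SAH mice had bleeding induced by perforating the circle of Willis on one side with a filament, the 3 Sham mice had the filament passed without perforation, and the 3 Naive mice had no operation. All were males of 10 to 14 weeks of the inbred strain written C56BL/6J in the study's methods, surgery was done under isoflurane, an inhaled anesthetic, with no drug treatment named in the labels, and each library was made from the whole hippocampus of both sides of 1 mouse. Hippocampi of SAH and Sham mice were taken 4 days after surgery, and Sham and Naive mice together formed the 6 control mice. Only mice whose cerebral blood flow fell at perforation were kept as SAH mice, so they stand for bleeds of that severity.

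Collagens are secreted or membrane-bound proteins whose chains wind into a triple helix. Fibril-forming collagens give tissues tensile strength, fibril-associated collagens coat those fibrils, and type IV collagens form the network of basement membranes. Brain tissue itself holds little fibrillar collagen, which lies in the meninges and around larger vessels and is made mainly by fibroblasts, whereas the basement membrane of brain vessels is built by endothelial cells, mural cells and astrocytes. Collagen XXV is an exception, being a membrane-spanning collagen of neurons.

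Sequences before the gene start are shown for the 3 chains of types I and III, which rose together, and for the neighbouring pair Col4a5 and Col4a6, which also rose together. Each is the 250 bases before the start, in mouse build mm9, 5′ to 3′ on the strand of the gene. Capitals mark 3 motifs, searched on both strands. CCAAT is the site of the factor NF-Y and reads ATTGG on the other strand. TATAAA is the sequence of a TATA box and reads TTTATA on the other strand. It was counted at any position and on either strand, so a match need not be a TATA box. GGGCGG is a GC box and reads CCGCCC on the other strand. In the windows shown no match overlapped another.
Col1a1 (chr11:94797334-94797583, + strand): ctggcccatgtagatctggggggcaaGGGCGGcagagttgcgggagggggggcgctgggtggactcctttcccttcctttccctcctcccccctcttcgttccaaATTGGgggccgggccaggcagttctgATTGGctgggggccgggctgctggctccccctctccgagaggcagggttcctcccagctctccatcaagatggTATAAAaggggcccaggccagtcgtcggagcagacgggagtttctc
Col1a2 (chr6:4455447-4455696, + strand): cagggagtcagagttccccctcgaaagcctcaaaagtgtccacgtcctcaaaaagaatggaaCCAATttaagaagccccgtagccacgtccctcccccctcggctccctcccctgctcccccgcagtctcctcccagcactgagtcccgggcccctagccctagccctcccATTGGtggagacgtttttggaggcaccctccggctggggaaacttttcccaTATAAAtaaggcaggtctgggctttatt
Col3a1 (chr1:45368133-45368382, + strand): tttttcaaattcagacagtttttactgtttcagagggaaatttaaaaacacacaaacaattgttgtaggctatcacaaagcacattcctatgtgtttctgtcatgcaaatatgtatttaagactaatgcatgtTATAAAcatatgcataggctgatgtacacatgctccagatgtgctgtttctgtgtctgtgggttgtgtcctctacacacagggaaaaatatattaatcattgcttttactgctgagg
Col4a5 (chrX:137909712-137909961, + strand): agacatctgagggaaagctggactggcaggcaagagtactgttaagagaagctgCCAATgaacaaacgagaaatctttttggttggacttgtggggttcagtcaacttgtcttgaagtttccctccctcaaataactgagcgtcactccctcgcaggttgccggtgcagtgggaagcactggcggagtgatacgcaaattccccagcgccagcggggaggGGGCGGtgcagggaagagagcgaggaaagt
Col4a6 (chrX:137908620-137908869, - strand): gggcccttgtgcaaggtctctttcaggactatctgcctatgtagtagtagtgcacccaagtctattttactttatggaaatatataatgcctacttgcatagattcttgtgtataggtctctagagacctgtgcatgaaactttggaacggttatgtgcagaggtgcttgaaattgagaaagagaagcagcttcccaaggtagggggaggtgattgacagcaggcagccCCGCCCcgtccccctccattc
Both type I genes hold a CCAAT motif and a TATAAA motif in this window. That combination was present in 4 of the 44 collagen windows and in 4.54% of the 24172 windows of all genes. The others were Col17a1 and Col14a1, whose match is TTTATA. The CCAAT motif was in 14 collagen windows and in 35.1% of all windows, the TATAAA motif in 7 and in 12.1%, and the GC box in 26 and in 41.3%. The Col3a1 window held the TATAAA motif alone of the 3. These matches are a description of the letters, not of factor binding.

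Levels were given as CPM, the counts of a gene per 1000000 counts of the library after TMM scaling. The libraries held 19743388 to 27254655 counts, of which collagen genes took 0.0506% ± 0.00363 (SD, n = 4) in SAH mice and 0.0433% ± 0.00406 (SD, n = 6) in control mice. Of the 12 markers of hippocampal neurons all were tested, with a summed level of 3195 to 3516 CPM, so the labelled tissue was there in every mouse. Libraries of SAH 3, SAH 4 and Sham 7 stood apart in their content of choroid plexus RNA, with the 14 markers of choroid plexus epithelium summing to 1276, 903 and 870.2 CPM, against 56.2 to 232 CPM in the other 7 mice. Nothing in the sources used here told sequencing lanes or extraction days apart, so such batches could not be examined.

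The abundant collagens of the hippocampus were compared per kilobase of exon, since longer genes collect more reads. Col25a1, the neuronal collagen XXV, had the highest level at 11.8 CPM per kilobase, with a range of 10.3 to 13.1 over the 10 mice. Col4a2 (9.69) and Col4a1 (8.13), the chains of the main vascular basement membrane collagen, came next, and their ranges of 7.54 to 12.9 and 6.16 to 12.1 overlapped each other. Col6a1, a chain of the beaded filaments of collagen VI, had 6.60 and Col9a3, a chain of fibril-associated collagen IX, had 4.16 CPM per kilobase. The type I chains Col1a2 (3.23) and Col1a1 (1.72) ranked seventh and eleventh, so that both main basement membrane chains had higher mean levels than both type I chains. At the other end, Col10a1 with 1 to 6 counts a mouse, Col17a1 with 1 to 11 and Col28a1 with 2 to 16 did not reach the filter and were not tested, and any difference in them was not detectable at this depth. Of the 44 genes, 36 had at least 10 counts in every mouse.

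**Figure D1:**
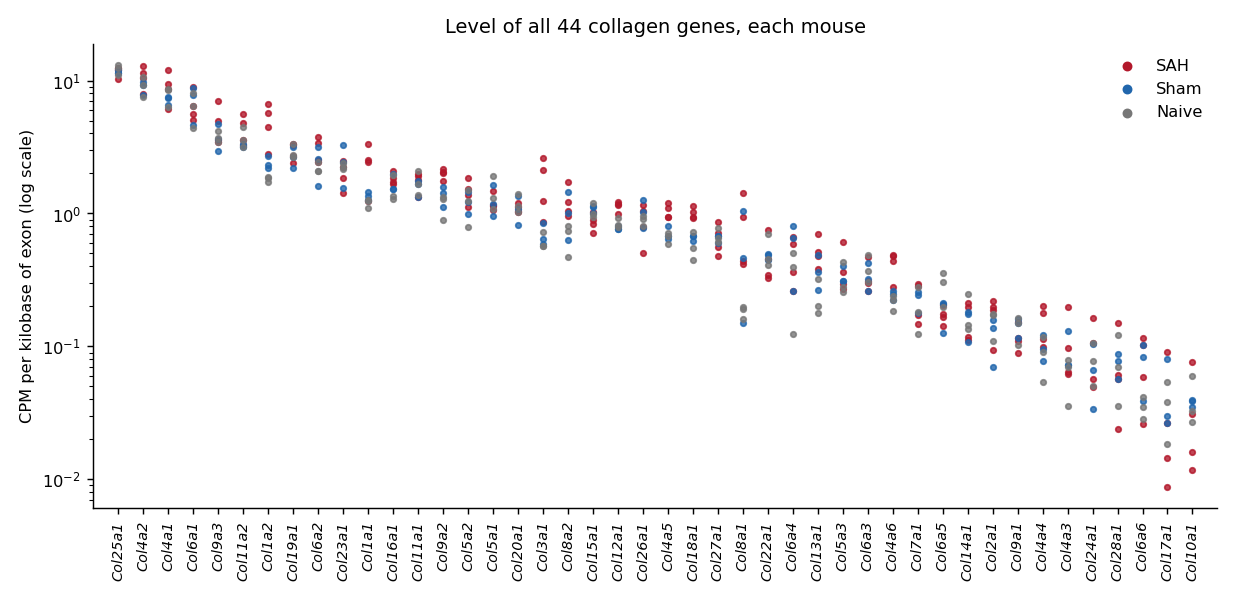
Level of each of the 44 collagen genes in each mouse, in CPM per kilobase of exon on a log scale, with 1 point a mouse coloured by group and genes ordered by their mean. Col25a1 leads at 11.8 CPM per kilobase, and most genes have SAH, Sham and Naive points intermixed.

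SAH mice were compared first with all control mice, the comparison the study used. The Naive mice among the controls had no surgery, so this comparison does not tell hemorrhage and surgery apart, and SAH against Sham is given below. The test was edgeR's quasi-likelihood test with Benjamini-Hochberg adjustment over all 14993 genes tested, calling adjusted p-values under 0.10. Called were 8 of the 41 collagen genes tested, or 19.5%, beside 4.68% of all genes tested. All 8 were higher, as were 3.13% of all genes. They were the fibrillar chains Col3a1, Col1a2 and Col1a1, the fibril-associated Col12a1 and Col9a2, the basement membrane chains Col4a5 and Col4a6, and Col18a1. Lower were 0 of the 41, beside 1.54% of all genes. DESeq2 called 8 higher and 0 lower, beside 5.3% of all its genes, and of the 13 collagen genes at an unadjusted p under 0.05 by edgeR 12 were higher and 1 was lower. Those 13 are 31.7% of the 41, beside 17.0% of all genes tested. In 7 of the 8, all but Col1a1, no control mouse reached the lowest SAH mouse. That pattern was held by 2.83% of all genes tested and its opposite, seen in 0 collagen genes, by 2.37%. The 8 genes all stayed past the threshold with each mouse left out in turn.

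**Figure D2:**
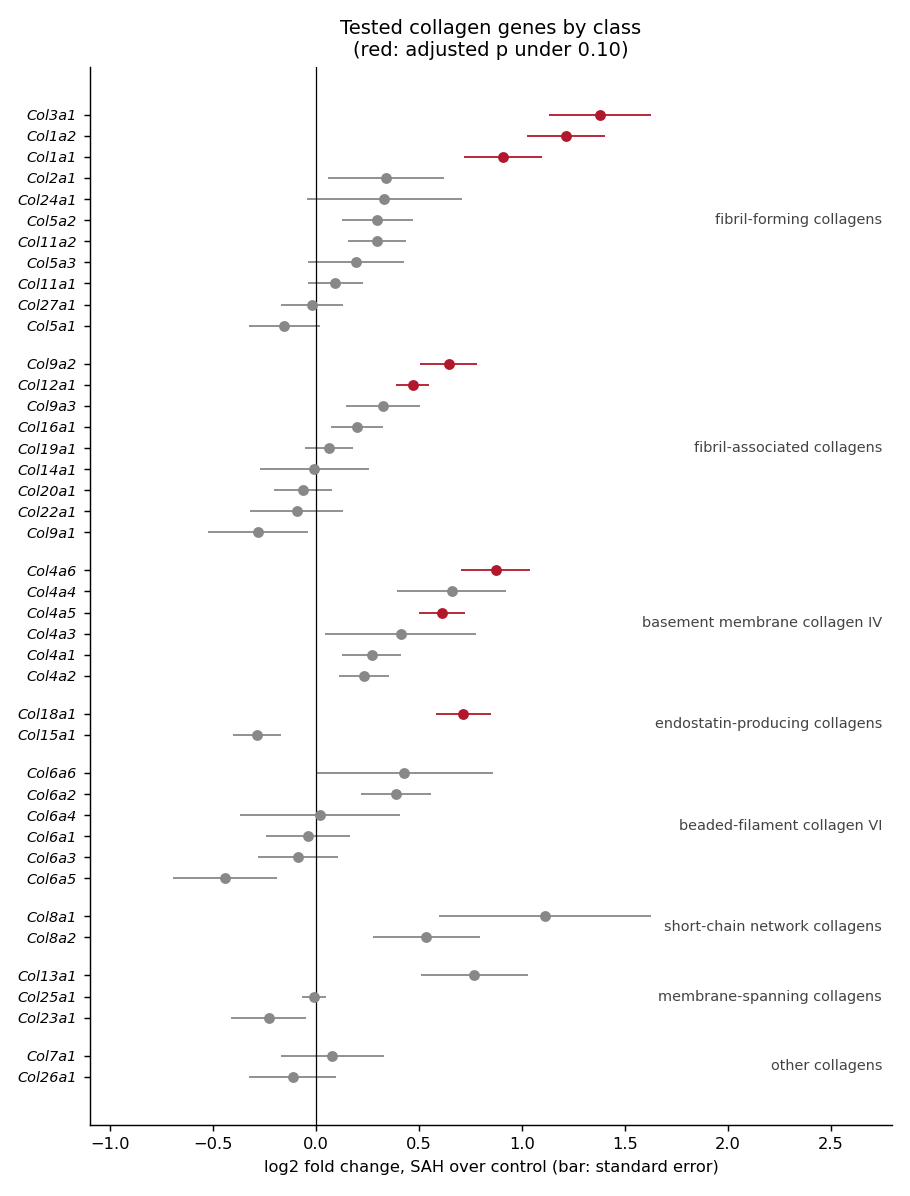
Log2 fold change of SAH over control for the 41 tested collagen genes, grouped by class, with bars of 1 standard error and genes with an adjusted p under 0.10 in red. The 8 red points lie between 0.47 for Col12a1 and 1.38 for Col3a1, in 4 of the 8 classes.

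Type I and type III collagen, the fibrils of connective tissue and vessel walls, showed the largest rises among the called genes. Col1a2, the alpha-2 chain of type I, was at 34.2, 29.2, 14.4 and 23.0 CPM in SAH mice 1 to 4, at 11.9, 11.3 and 13.8 CPM in Sham mice 5 to 7, and at 9.70, 9.56 and 8.87 CPM in Naive mice 8 to 10. The groups did not overlap, although SAH 3 was close to Sham 7. Group means were 25.2 ± 8.51 CPM in the SAH mice (SD, n = 4) against 10.9 ± 1.85 CPM in the control mice (SD, n = 6). The log2 fold change, SAH over control, came to 1.21 with a standard error (SE) of 0.19 and an edgeR adjusted p of 0.00450. Col1a1, the alpha-1 chain with which it assembles, was at 15.7, 11.8, 5.86 and 11.5 CPM in SAH, at 6.31, 5.92 and 6.76 CPM in Sham and at 5.98, 5.81 and 5.14 CPM in Naive mice. Here SAH 3 fell inside the control range while the other SAH mice lay well above it. The log2 fold change of Col1a1 was 0.91 (SE 0.19, edgeR adjusted p = 0.0217).

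Col3a1, which forms the thin fibrils of type III, was at 14.6, 11.8, 4.80 and 6.95 CPM in SAH, at 3.30, 3.57 and 4.71 CPM in Sham and at 4.02, 3.19 and 3.14 CPM in Naive mice. Every SAH mouse was above every control mouse, but SAH 3 exceeded Sham 7 by little. The log2 fold change was 1.38 (SE 0.25, edgeR adjusted p = 0.00929), a 2.60-fold rise. In all 3 genes the SAH mice had the order 1, 2, 4, 3 from high to low, and with SAH 3 left out the log2 fold changes of Col1a1, Col1a2 and Col3a1 became 1.11, 1.40 and 1.59. Of the 11 fibril-forming genes the other 8 were not called, with log2 fold changes from −0.15 for Col5a1 to 0.34 for Col2a1, and the median over the 11 was 0.30.

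**Figure D3:**
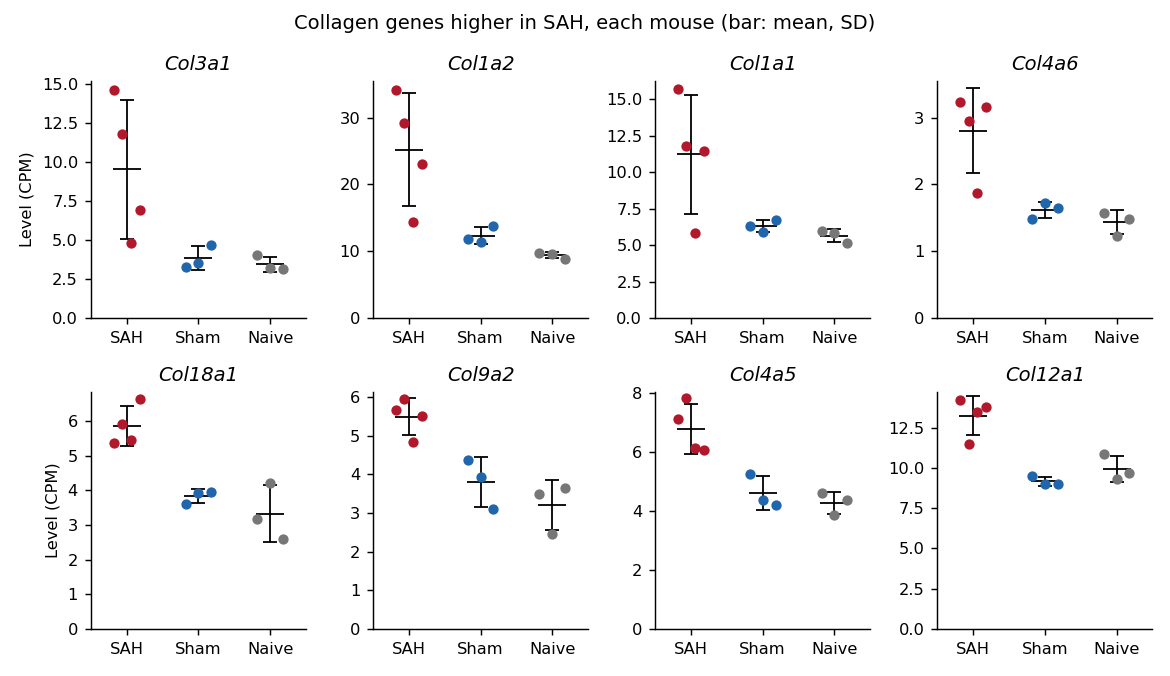
CPM of the 8 collagen genes called higher in SAH, with 1 point a mouse and bars giving the mean and SD of each group, each axis starting at 0. SAH points lie above all Sham and Naive points except in Col1a1, where SAH 3 at 5.86 CPM falls among them.

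The fibril-associated collagens that rose were Col12a1 and Col9a2, 2 of 9 tested. Col12a1 codes for collagen XII, which lies on the surface of type I fibrils, and was at 14.2, 11.5, 13.5 and 13.8 CPM in SAH, 9.49, 9.01 and 8.97 CPM in Sham and 10.9, 9.31 and 9.68 CPM in Naive mice. The groups did not overlap, and SAH 3 was not low for this gene as it was for type I. Its log2 fold change of 0.47 was the smallest of the 8, with an SE of 0.08 (edgeR adjusted p = 0.00779). Col9a2, a chain of collagen IX, was at 5.66, 5.96, 4.85 and 5.52 CPM in SAH, 4.37, 3.93 and 3.10 CPM in Sham and 3.50, 2.47 and 3.65 CPM in Naive mice. Again no control mouse reached the SAH mice, and the log2 fold change was 0.64 (SE 0.14, edgeR adjusted p = 0.0252). Its partner chains were not called, with log2 fold changes of −0.28 for Col9a1, a scarce gene at 0.483 ± 0.108 CPM in SAH mice (SD, n = 4), and 0.32 for Col9a3.

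Col9a3 was at 10.2, 9.89, 19.9 and 14.1 CPM in SAH, 10.4, 8.38 and 13.4 CPM in Sham and 11.9, 10.4 and 9.85 CPM in Naive mice. The groups overlapped, and the 3 highest mice were SAH 3, SAH 4 and Sham 7, the 3 with the most choroid plexus RNA. With those 3 mice left out, a setting chosen after the data were seen, the log2 fold change of Col9a3 was −0.021. Exons of Col9a3 overlap those of Tcfl5 on the other strand, and the libraries were stranded.

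In the basement membrane family, Col4a5 and Col4a6 rose and the other 4 genes were not called. Col4a5 was at 7.11, 7.83, 6.11 and 6.08 CPM in SAH, 5.24, 4.37 and 4.18 CPM in Sham and 4.59, 3.86 and 4.37 CPM in Naive mice. All SAH mice were above all controls, and the log2 fold change was 0.61 (SE 0.11, edgeR adjusted p = 0.00945). Col4a6 was at 3.24, 2.94, 1.87 and 3.16 CPM in SAH, 1.49, 1.73 and 1.65 CPM in Sham and 1.58, 1.23 and 1.49 CPM in Naive mice, with SAH 3 again nearest to the controls. The log2 fold change was 0.87 (SE 0.17, edgeR adjusted p = 0.0135). These chains assemble together in the basement membranes of smooth muscle and some epithelia, and their genes lie head to head on chromosome X with 1342 bases between the annotated starts, the sequences shown above coming from that interval.

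Col4a1 and Col4a2, the common chains of vessel basement membranes, also lie head to head, on chromosome 8 with 2 bases between them. Col4a1 was at 40.7, 57.0, 80.0 and 62.0 CPM in SAH, 49.7, 49.2 and 43.6 CPM in Sham and 57.1, 56.5 and 42.1 CPM in Naive mice. Col4a2 was at 50.5, 67.3, 83.1 and 72.7 CPM in SAH, 59.0, 62.7 and 50.4 CPM in Sham and 68.8, 59.9 and 48.4 CPM in Naive mice. For both genes the SAH mice had the order 3, 4, 2, 1 from high to low, the reverse of their order for type I, and SAH 1 was among the lowest of all mice. Log2 fold changes were 0.27 (SE 0.14, edgeR adjusted p = 0.362) and 0.23 (SE 0.12, edgeR adjusted p = 0.354), within the spread between mice. Without SAH 1 both passed the threshold (adjusted p = 0.0699 and 0.0803 by edgeR), and without the 3 mice rich in choroid plexus RNA the log2 fold changes were −0.048 and −0.014. Per kilobase of exon, Col4a2 was 1.07 to 1.31 times Col4a1 in all 10 mice. The third pair, Col4a3 and Col4a4, was scarce, at 2.07 ± 0.911 CPM summed over both in SAH mice (SD, n = 4) against 1.39 ± 0.230 CPM in control mice (SD, n = 6), and was not called.

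Col18a1, a basement membrane collagen whose end fragment is endostatin, was at 5.37, 5.92, 5.46 and 6.64 CPM in SAH, 3.59, 3.93 and 3.94 CPM in Sham and 3.16, 4.22 and 2.59 CPM in Naive mice. The groups did not overlap, and the log2 fold change was 0.72 (SE 0.13, edgeR adjusted p = 0.0110). Col15a1, the related gene with a similar end fragment, had a log2 fold change of −0.29 (SE 0.12, edgeR adjusted p = 0.226) and was called lower in 1 alternative, with SAH 2 left out.

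Among the remaining classes 0 genes were called by edgeR or DESeq2. Of the 6 collagen VI genes 1 had an unadjusted p under 0.05, of the 2 tested short-chain network collagens 1 did, of the 3 tested membrane-spanning ones 1 did, and of the other collagens, Col7a1 and Col26a1, 0 did, where 17.0% of all genes tested had such a p. Col6a1 was at 22.1, 35.7, 25.4 and 19.99 CPM in SAH, 34.7, 31.0 and 18.5 CPM in Sham and 32.1, 25.4 and 17.4 CPM in Naive mice, a wide spread in every group with a log2 fold change of −0.04. Col25a1 was at 77.3, 91.9, 92.8 and 89.97 CPM in SAH, 85.6, 89.0 and 85.5 CPM in Sham and 92.5, 97.7 and 81.9 CPM in Naive mice. This neuronal gene was the steadiest of the abundant members, with a log2 fold change of −0.01 (SE 0.06, edgeR adjusted p = 0.947).

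Col8a1, a short-chain collagen of vessels and of the membrane under the corneal endothelium, had a log2 fold change of 1.11 but an SE of 0.52 (edgeR adjusted p = 0.294). It was at 2.13, 2.24, 7.28 and 4.84 CPM in SAH, 2.35, 0.772 and 5.31 CPM in Sham and 0.978, 0.823 and 1.02 CPM in Naive mice. High were SAH 3, Sham 7 and SAH 4, the mice with the most choroid plexus RNA, and without Sham 7 the gene was called higher. Its partner Col8a2 had its 3 highest values, 7.53, 6.28 and 5.32 CPM, in the same mice, and a log2 fold change of 0.53 (SE 0.26, edgeR adjusted p = 0.318). Col13a1, a membrane-spanning collagen of the neuromuscular junction, had a log2 fold change of 0.77 (SE 0.26, edgeR adjusted p = 0.149) and was also called without Sham 7. The part of choroid plexus RNA in these values was not tested.

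Over the 41 tested collagen genes the median log2 fold change was 0.27, with 28 above 0 (68.3%), beside a median of −0.0024 and 49.1% above 0 over all genes tested. The median was 0.11 without SAH 3 and 0.051 without the 3 mice rich in choroid plexus RNA, a setting in which 9 collagen genes were called, the 8 and Col6a2. Summed over all 44 genes, SAH mice had 452 to 541 CPM and control mice 383 to 489.7 CPM, so that 1 SAH mouse lay inside the control range.

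Each control group was then set against SAH on its own, since Sham mice share the surgery with SAH mice and Naive mice do not. Both comparisons share the 4 SAH mice, and all 3 came from 1 fit of the 3 groups with 15134 genes tested. Against Sham, 2 of 41 collagen genes were called, beside 0.72% of all genes, and both were higher, beside 0.529%. They were Col12a1 (log2 fold change 0.53, edgeR adjusted p = 0.0492) and Col1a2 (1.03, edgeR adjusted p = 0.0777). Col3a1 and Col4a5 came closest among the rest, at 1.31 and 0.56 with adjusted p = 0.113 for each by edgeR. DESeq2 called 7 in this comparison, beside 1.54% of all its genes, and these were all of the 8 but Col9a2. The count was 0 without SAH 4 or without any 1 of the Sham mice, 1 without SAH 2 or without any 1 of the Naive mice, and 7 without SAH 3.

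Against Naive, 9 of 41 were called, beside 2.99% of all genes, and all were higher, beside 2.03%. These were the 8 and Col13a1, and DESeq2 called 11, beside 3.76% of all its genes. Log2 fold changes were 1.46 for Col3a1, 1.43 for Col1a2, 0.99 for Col1a1, 0.96 for Col4a6 and 0.83 for Col18a1. Col9a2, Col4a5 and Col12a1 had 0.77, 0.66 and 0.41. Col13a1 had 1.13 (edgeR adjusted p = 0.0950). The count fell to 5 without SAH 4 and to 1, 2 and 4 without Naive 8, 9 and 10. With choroid plexus content as a covariate it was 4, namely Col1a1, Col1a2, Col3a1 and Col4a5. In this comparison choroid plexus markers were called higher in 2 of 14 by edgeR and in 6 by DESeq2. An unadjusted p under 0.05 was held by 13 of them, beside 14.8% of all genes tested. Their median log2 fold change was 2.23, and their part in the collagen values was not tested beyond that covariate.

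Sham against Naive called 0 of 41 collagen genes by edgeR and 0 by DESeq2, beside 0.00661% and 0.0102% of all genes, and 2 of the 41 (4.88%) had an unadjusted p under 0.05, beside 2.02% of all genes. Of the 8, all but Col12a1 had a log2 fold change above 0 in this comparison, the furthest being Col1a2 at 0.40 (SE 0.24, edgeR adjusted p = 1.00), and Col12a1 was at −0.12. With 3 mice a group a difference of this size was not detectable, which does not show that Sham and Naive mice were alike.

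**Figure D4:**
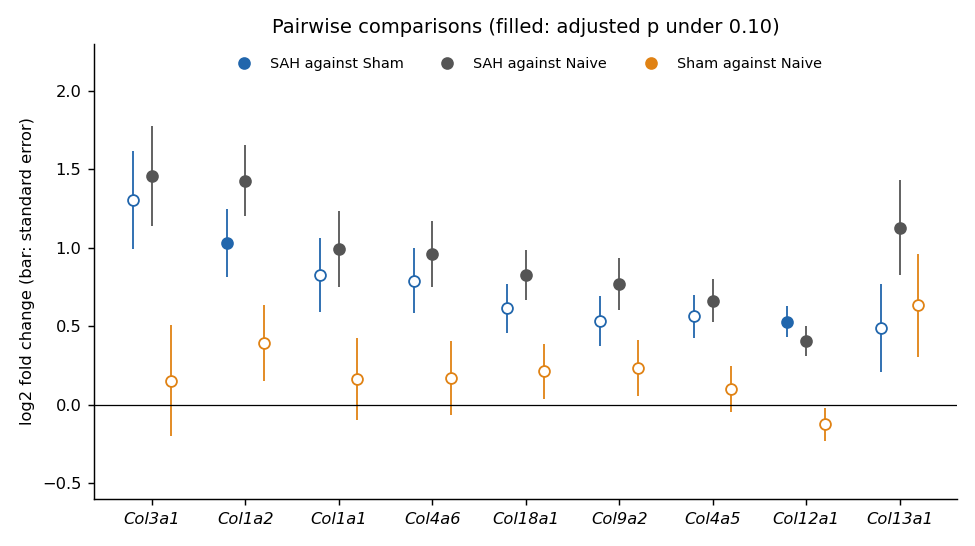
Log2 fold changes of the 8 genes and of Col13a1 in SAH against Sham, SAH against Naive and Sham against Naive, with bars of 1 standard error and filled points for an adjusted p under 0.10. Col12a1 and Col1a2 are filled against Sham, all 9 against Naive, and none in Sham against Naive.

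Genes that make, process, bind and cut collagen were described from 4 lists. Of 48 tested, 9 were called in SAH against control, where 4.68% of all genes tested were called in either direction, 3.13% higher and 1.54% lower. Among 21 genes of folding and modification 1 rose, P4ha3, a prolyl hydroxylase subunit (log2 fold change 0.54, edgeR adjusted p = 0.0625), a share near that of all genes, and the median of that list was 0.05. The other 20 were not called, among them P4hb, the partner subunit of the prolyl hydroxylases, at 0.01 and Serpinh1, the collagen chaperone, at 0.14. Of 12 genes that trim procollagen or cross-link fibrils 3 rose. Pcolce, which speeds removal of the procollagen end, was at 11.8 ± 2.28 CPM in SAH mice (SD, n = 4) against 4.53 ± 1.54 CPM in control mice (SD, n = 6). Loxl2, a lysyl oxidase that cross-links collagen, was at 2.07 ± 0.409 against 0.994 ± 0.224 CPM. The other was Lox, the founding member of that family, at 0.999 to 3.69 CPM in SAH and 0.289 to 0.552 CPM in control. Their log2 fold changes were 1.38, 1.05 and 2.12 with adjusted p = 0.00375, 0.0124 and 0.00573 by edgeR. Counts of Lox ran from 7 to 73 a mouse, and the SAH mice alone can meet the filter. The size of the Lox rise therefore rests on low counts in control mice and is uncertain.

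Of 8 collagen receptor genes 3 rose, namely Mrc2, an endocytic receptor that takes up collagen (log2 fold change 0.92), Itga1, an integrin subunit (0.42), and Ddr2, a receptor tyrosine kinase (0.35). Of 7 collagen-cleaving enzymes Mmp2, a gelatinase, rose by 0.59 and Mmp15, a membrane-bound metalloproteinase, fell by 0.39 on the log2 scale. Mmp9, the other gelatinase, was at 0.003 (edgeR adjusted p = 0.996). The list medians were 0.31 for receptors, 0.26 for trimming and cross-linking and −0.05 for cleavage. With choroid plexus content added as a covariate 4 of the 9 calls were left, Lox, Loxl2, Pcolce and Ddr2. Against Sham alone edgeR called 1 gene of folding, 2 of trimming and cross-linking, 0 receptors and 0 cleaving enzymes, beside 0.72% of all genes. DESeq2 called 1, 2, 2 and 0 there, beside 1.54% of all its genes. Against Naive alone edgeR called 0, 3, 2 and 0, beside 2.99% of all genes.

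Markers of fibroblasts, the main makers of fibrillar collagen, moved with the same groups. Of 14 markers of vascular and meningeal fibroblasts 11 were called higher and 0 lower in SAH against control (DESeq2 also 11 and 0), beside 3.13% and 1.54% of all genes. Against Sham 4 were called higher (DESeq2 7) and against Naive 12 (DESeq2 12), beside 0.529% and 2.03% of all genes. In Sham against Naive 0 were called by edgeR or DESeq2, but all 14 had a log2 fold change above 0 and 6 (42.9%) an unadjusted p under 0.05, beside 2.02% of all genes. Their sum was 425, 395, 222 and 305 CPM in SAH mice 1 to 4, 200.1 to 212 CPM in Sham and 151 to 162 CPM in Naive mice. The SAH mice thus had the order 1, 2, 4, 3 also in this sum, which is the order of Col1a1, Col1a2 and Col3a1. Dcn, the most abundant matrix proteoglycan on the list at 71.9 CPM in SAH, was not called at a log2 fold change of 0.12, and 0 of the 14 were at 0 in every mouse. In whole tissue, more cells of a type and more RNA per cell cannot be told apart, and the part of fibroblast content in the collagen values was not tested.

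**Figure D5:**
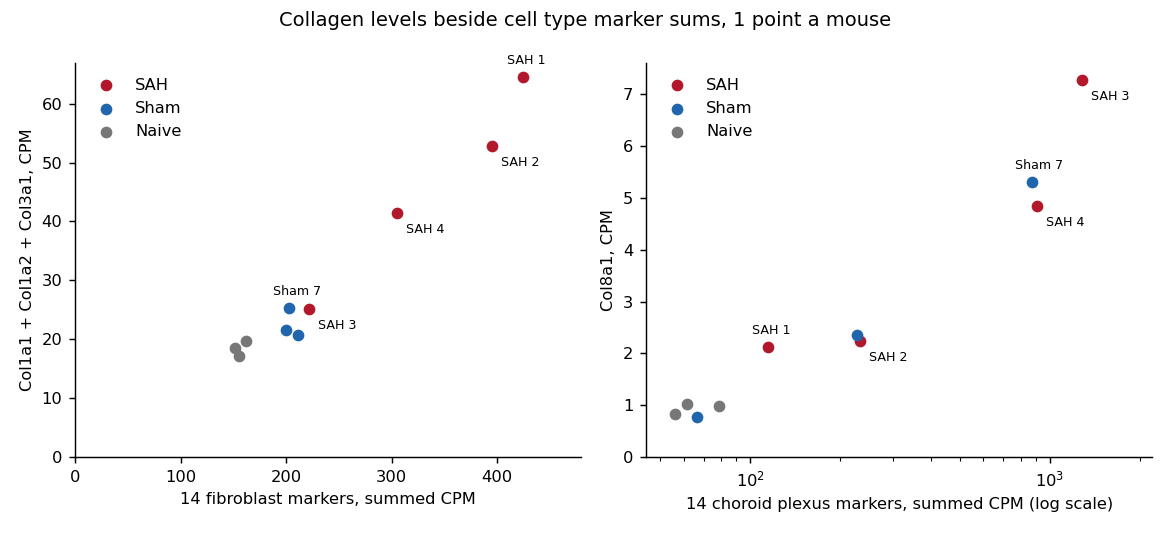
Left, the summed CPM of Col1a1, Col1a2 and Col3a1 against the summed CPM of 14 fibroblast markers, and right, CPM of Col8a1 against the summed CPM of 14 choroid plexus markers on a log scale, with 1 point a mouse coloured by group. SAH mice run 3, 4, 2, 1 along both axes on the left, and SAH 3, SAH 4 and Sham 7 hold the high end of both axes on the right.

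Higher in SAH were also 5 of 7 tested arterial smooth muscle markers, with sums of 63.5 to 90.9 CPM in SAH and 41.8 to 52.1 CPM in control. So were 5 of 14 endothelial markers (244 to 426 against 227 to 304 CPM) and 1 of 9 pericyte markers (182 to 234 against 148 to 174 CPM). Of 11 markers of border and blood myeloid cells, 6 passed the filter and 5 of these were called higher. The sum over all 11 was 19.2 to 24.8 CPM in SAH and 6.51 to 12.4 CPM in control. The filter can be met by the SAH mice alone, so scarce markers may have entered through the group where they were high. Choroid plexus markers, with SAH 115 to 1276 CPM, Sham 66.5 to 870.2 CPM and Naive 56.2 to 78.6 CPM, were called in 0 of 14 by edgeR and by DESeq2 against pooled control mice. At an unadjusted p under 0.05 were 3 of the 14 (21.4%), beside 17.0% of all genes tested. Against Naive mice alone 2 were called by edgeR, as given above. Oligodendrocyte markers fell in 11 of 12 (5080.3 to 6458 against 7452 to 10287 CPM). Called higher were 1 of 10 astrocyte markers, 2 of 10 microglial ones and 1 of 12 of hippocampal neurons, and called lower was 1 of 8 of inhibitory neurons. Beside the 3.13% of all genes called higher and 1.54% called lower, a single call in such a short list, also that of the pericytes, is not read as a change of the cell type. Called by edgeR in 0 were oligodendrocyte precursors (of 8), ependyma (of 7), thalamus and cortex outside the hippocampus (of 8) and red blood cells (of 1 tested). In these lists 2, 1, 2 and 0 genes had an unadjusted p under 0.05, beside 17.0% of all genes tested. DESeq2 called 1, 0, 0 and 0, beside 5.3% of all its genes. Blood cell RNA was scarce, at 1.16 to 3.90 CPM summed, with 6 of the 9 markers at 0 in every mouse. The part of these cells in the collagen values was not tested either.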

How the data were processed

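RNA-seq was analysed for 10 mice, 4 SAH, 3 Sham and 3 Naive, with 1 library a mouse. The authors depleted ribosomal RNA, sequenced stranded libraries in pairs of 50-base reads, aligned them to mm9 with STAR and counted them with featureCounts 1.6.2 over the union of exons per gene name. Read pairs with several alignments or on more than 1 gene were left out, which can lower genes that share sequence. The deposited values are whole-number counts per gene, without normalization. Of the collagen genes, 2 share exon bases with another gene, Col7a1 with Mir711 on the same strand, where reads cannot be told apart, and Col9a3 with Tcfl5 on the opposite strand. Within each group, every pair of libraries differed by more than sampling noise. Pairs across groups were not compared.

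Collagen genes were found by symbol. CPM used TMM library sizes from edgeR 4.0.16 in R 4.3.3. Genes passing filterByExpr (minimum count 10, minimum total 15) were compared by edgeR's quasi-likelihood test with Benjamini-Hochberg adjustment over all tested genes, SAH against Sham and Naive pooled, and pairwise in a fit of 3 groups. The standard error is the log2 fold change divided by the square root of F. Scripts were tested on simulated data. Whether mice of a group share a litter or a surgery day was not given in the sources used here. Such sharing could not be told apart from the group. The p-values set group differences against the spread between these mice.

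Named with every mouse's value were genes past the threshold in SAH against control, the 5 with the highest level per kilobase and any gene past it in Sham against Naive, and pathway genes past the threshold were named up to 6 a list. Col8a1 values were added after they were seen. Collagen genes, the 8 classes, 4 pathway lists and 15 cell type lists were chosen with earlier results of these data known. Sequences and their motifs came from the mm9 genome (NCBIM37). Of 2035 collagen exons in the count tables, 97.7% matched an exon of the reference annotation at both ends. Alternatives were DESeq2 1.42.0, other scalings and filters, a stricter threshold, a robust fit, other groupings of control mice, a choroid plexus covariate (the mean log2 CPM of its markers) and each mouse left out in turn. Python 3.11.15 was used for summaries.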

Additional observations from a re-analysis of the deposited data

Results flagged for a closer look

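Of 82 sets of values examined, the 41 tested collagen genes in SAH and in control mice, 4 held a mouse far from the others of its set, where chance gives about 1 in 20. In each case it was a high control mouse. Col22a1, a fibril-associated collagen of tissue junctions, was at 4.29 CPM in Naive 10 and at 2.52 to 3.01 CPM in the other control mice. Col8a1 was at 5.31 CPM in Sham 7 and at 0.772 to 2.35 CPM in the others, and Sham 7 also had the most choroid plexus RNA among the controls, at 870.2 CPM summed over its markers. Col11a2, a fibril-forming collagen, was at 25.1 CPM in Naive 8 and at 17.8 to 19.9 CPM in the others. Col12a1 was at 10.9 CPM in Naive 8 and at 8.97 to 9.68 CPM in the others, and this mouse was still below the lowest SAH mouse at 11.5 CPM. The count of 4 in 82 is near what chance gives, so these values are listed and not read as real differences. No cause of the high values was tested.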

How the results depend on the processing

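The 8 collagen genes called in SAH against control were called under all 20 alternatives, and the count was 8 in the 9 of them that kept all mice, 9 without the 3 mice richest in choroid plexus RNA (chosen after the data were seen) and 8 to 10 with each mouse left out. Sham against Naive called 0 throughout. SAH against Sham, at 2, depended most on the processing, with 1 at an adjusted p under 0.05, 7 by DESeq2, 1 in the robust fit, 0 with only the mice of the 2 groups and 0 to 7 with each mouse left out. SAH against Naive, at 9, gave 4 with the choroid plexus covariate and 1 to 10 with each mouse left out. Pathway genes, at 9, gave 4 with that covariate and 6 to 11 with each mouse left out. The median log2 fold change of 0.27 became 0.12 with the covariate, 0.051 without the 3 mice and 0.11 to 0.32 with each mouse left out. Of the uncalled genes, the 5 with the highest level per kilobase were followed, and the direction of all 5 turned in some setting. Without the 3 mice Col4a1 was at −0.048, Col4a2 at −0.014, Col9a3 at −0.021 and Col6a1 at 0.052, and with the covariate Col9a3 was at −0.0016 and Col6a1 at 0.085. With each mouse left out Col25a1 ran from −0.034 to 0.045 and Col6a1 from −0.24 to 0.070. The cause of these changes was not tested. No paired analysis was possible because the groups hold different mice and the sources used here give no link between them. Depth limited the genes with few counts.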

Other observations

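The ratio of a pair of collagen genes within a mouse does not depend on library size. Per kilobase of exon, Col1a2 was 1.83 to 2.26 times Col1a1 in SAH, 1.72 to 1.87 times in Sham and 1.48 to 1.58 times in Naive mice, so that Naive mice lay below all others while SAH and Sham overlapped. Col3a1 over Col1a1, which code for different collagens, was 0.512 to 0.842 in SAH and 0.441 to 0.588 in control mice, with SAH 4 inside the control range. Col6a1 over Col6a2, the chains of collagen VI, was 1.63 to 2.61 in SAH and 2.10 to 3.31 in control mice. Col4a5 over Col4a6 was 1.97 to 3.35 in SAH and 2.59 to 3.61 in control mice. These ratios were examined after the levels were seen and were not tested.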
